A study of Mus musculus with 103 samples.

Results

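Interferon response genes were followed in the aortic arch of mice with and without apolipoprotein E. The set holds 39 named genes, matched by symbol to the 51456 gene symbols of the deposited tables. All 39 were found, and all 39 passed the filter on low values that left 14637 genes for testing. By role they are 4 sensors of RNA and DNA, 6 transcription factors and feedback regulators, 8 IFIT and OAS effectors, 11 other antiviral effectors, 7 interferon-gamma GTPases and 3 genes of class I antigen processing. Each RNA-seq library came from a separate C57BL/6 female, wild type (WT) or ApoE-KO, that had been ovariectomized, fed a high-fat diet (42% of calories as fat) and dosed weekly with vehicle or Scl-Ab. The antibody, r13C7, binds sclerostin and was given subcutaneously at 10 mg/kg. Ovariectomy and the diet were common to all groups, so neither has a control here. After 3 weeks of dosing (day22), at 12 to 13 weeks of age, there were 8 WT vehicle, 8 ApoE-KO vehicle, 6 WT Scl-Ab and 9 ApoE-KO Scl-Ab libraries. The same groups held 5, 10, 9 and 10 libraries after 8 weeks (day57, age 17 to 18 weeks), and 10, 10, 8 and 10 after 16 weeks (day113, age 25 to 26 weeks).

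Type I interferons signal through a receptor on nearly all cells to a complex that holds STAT2 and IRF9 and binds the interferon-stimulated response element (ISRE) in front of antiviral genes. Interferon-gamma, made by T and NK cells, signals through another receptor to the gamma-activated site (GAS), and it strongly induces guanylate-binding proteins, immunity-related GTPases and the class I antigen machinery. In the artery wall of atherosclerotic mice, macrophages and smooth muscle cells are both known to respond to interferons, and loss of apolipoprotein E on a fat-rich diet fills the arch with macrophage-rich lesions.

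The promoter stretches of 9 members whose values are described below are shown because they hold the letters of the 2 elements. RefSeq promoters (GRCm38.p6), from 250 bases before to 50 bases after the start of the gene, were matched for 29 of the 39 members. Each stretch has 60 bases, is written 5′ to 3′ on the strand of the gene, and lies before the annotated start. Capitals mark GAAANNGAAA on either strand (ISRE letters, TTTCNNTTTC when read from the other strand) and TTCNNNGAA (GAS letters), where overlapping matches run together.
Oas1a, chr5:120907526-120907585, minus strand: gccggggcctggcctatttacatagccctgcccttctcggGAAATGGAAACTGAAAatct
Isg15, chr4:156200865-156200924, minus strand: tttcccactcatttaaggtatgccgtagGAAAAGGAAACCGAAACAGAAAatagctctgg
Ifit1, chr19:34640764-34640823, plus strand: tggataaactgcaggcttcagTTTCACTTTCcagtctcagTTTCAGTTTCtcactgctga
Ifit3, chr19:34583367-34583426, plus strand: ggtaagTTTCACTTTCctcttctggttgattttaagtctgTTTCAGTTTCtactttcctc
Rsad2, chr12:26456553-26456612, minus strand: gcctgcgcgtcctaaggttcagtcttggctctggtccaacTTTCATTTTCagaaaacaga
Gbp3, chr3:142559965-142560024, plus strand: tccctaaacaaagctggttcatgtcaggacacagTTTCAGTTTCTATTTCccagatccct
Gbp7, chr3:142530243-142530302, plus strand: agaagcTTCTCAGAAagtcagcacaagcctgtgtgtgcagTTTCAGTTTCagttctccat
Igtp, chr11:58199482-58199541, plus strand: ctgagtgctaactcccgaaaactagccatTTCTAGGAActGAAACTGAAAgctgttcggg
Irf1, chr11:53769883-53769942, plus strand: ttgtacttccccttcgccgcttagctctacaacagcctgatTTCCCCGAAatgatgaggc
ISRE letters were in the promoter window of 16 of the 29 members (55.2%), against 3.99% of the 27025 genes with a promoter in the table. GAS letters were in 9, against 9.55% of all. Oas1a, Bst2, Gbp5, Gbp7 and Igtp held both. Irf1, Psmb8, Ifit2 and Ifi35 held GAS letters and no ISRE letters. The 39 members lie on 15 chromosomes, and some families are clustered. Ifit1, Ifit2 and Ifit3 neighbour each other on chromosome 19, Gbp2, Gbp3, Gbp5 and Gbp7 on chromosome 3, Oas1a, Oas2 and Oas3 on chromosome 5, and Tap1, Psmb8 and Psmb9 on chromosome 17. Tap1 (GENCODE M21, GRCm38, chr17:34187553-34197225, plus strand) and Psmb9 (chr17:34181987-34187764, minus strand) overlap, and since the use of strand in counting is not given in the sources used here, reads in the overlap cannot be assigned to either gene.

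The unit of the deposited values is not defined in the sources used here. They were treated as fpkm-type, that is, scaled per length, and levels of different genes are set side by side on that assumption alone. Apoe itself ran from 4.31 to 18.2 in the knockout libraries and from 219.9 to 617 in the wild-type libraries. The smooth muscle marker sum was 5843 to 17448 in wild-type and 6256 to 15687 in knockout vehicle libraries of week 3, and 12879 to 17966 and 8416 to 13789 in week 16. The week 3 medians were 16678 in wild type and 10912 in knockout, and the wild-type low of 5843 was replicate 4, described below. Of the 8 smooth muscle genes 3, 0 and 7 were lower in the knockout with vehicle in weeks 3, 8 and 16, and 2 were lower with Scl-Ab in wild type of week 3. Their part in the results was not tested. The summed level of 12 macrophage markers, all of them above 0 in every library, was at most 596 in a wild-type library and at least 622 in a knockout library. In bulk tissue a gain of cells of a type and more RNA per cell cannot be told apart. A pair of vehicle libraries of week 3 stood apart. Wild-type replicate 4 had the highest value of its group for 37 of the 39 members, and also a B and plasma cell marker sum of 75.2 and a cardiomyocyte marker sum of 4844. Knockout replicate 5 had the highest value for 33 members, with a T and NK cell marker sum of 62.5 and Ifng (interferon-gamma) at 3.17, the highest Ifng value of the series. Results of week 3 are therefore also given without both. In libraries of week 3, brown adipocyte markers summed to 546 to 7663 with Scl-Ab and 130.5 to 4618 with vehicle in wild type. The fit with carry-over scores as covariates, given with the Scl-Ab results, holds these markers together with those of other tissues around the arch.

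Among vehicle-treated mice most interferon response genes were higher in ApoE-KO than in WT arches. A call means an adjusted p under 0.05 (limma over all 14637 genes, Benjamini-Hochberg, two-sided), and changes are log2 differences of (value + 1) with their SE. After 3 weeks 36 of 39 members were higher and 0 lower, where 11.6% of all genes were called higher. After 8 weeks 17 were higher (all genes 10.2%), and after 16 weeks 35 (all genes 15.5%), again with 0 lower. Over all genes 13.4%, 5.32% and 21.1% were called lower at these times. The median change of the members was 0.77, 0.48 and 0.79 at the 3 times, against -0.015, -0.032 and -0.060 over all genes. Without both libraries that stand apart, week 3 had 37 higher members. The week 8 count fell to 12 without wild-type replicate 3, 1 of only 5 libraries in its group. With components of the clock genes as covariates the week 3 count was 17. For these refits the shares of all genes called are not given here. Arntl, a core clock gene, was also read in vehicle arches. Its medians in weeks 3, 8 and 16 were 5.42, 6.83 and 12.1 in wild type and 3.13, 4.17 and 8.6 in knockout. The groups overlapped each time, and the part of the clock in the genotype result was not tested beyond this fit. Full separation of the groups was rarer than a call among the members. Every knockout vehicle library exceeded every wild-type one for 0 members in week 3 (all genes 0.956%), 6 in week 8 (4.55%) and 7 in week 16 (6.48%). Across the 6 knockout comparisons, vehicle and Scl-Ab together, 15 members were called higher in all 6, and Ifi35 in none.

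**Figure D1:**
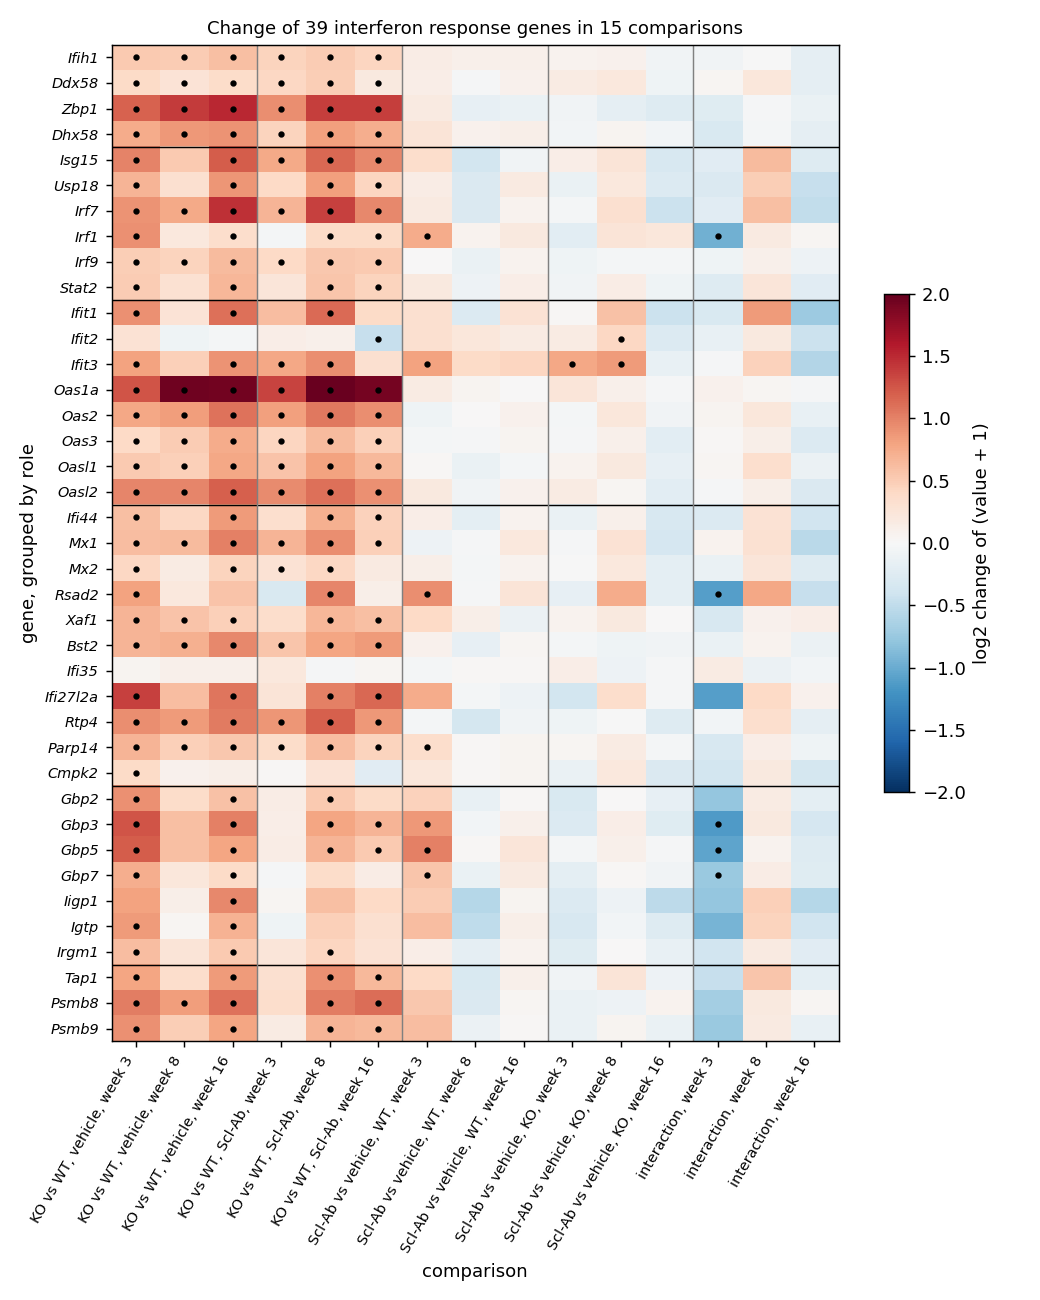
Log2 change of (value + 1) for each of the 39 genes (rows, grouped by role, lines between roles) in 15 comparisons (columns), with red for higher and blue for lower. Black dots mark an adjusted p under 0.05. The left 6 columns, knockout against wild type, are mostly red and dotted, with Oas1a up to 1.98, and the Scl-Ab columns hold few dots outside wild type in week 3.

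The oligoadenylate synthetases, which make the messenger that activates RNase L, and the related Oasl1 and Oasl2 were all called higher in the knockout at each of the 3 times. Oas1a had the largest change of the 39 in weeks 8 and 16, while in week 3 Ifi27l2a was higher by 1.37 ± 0.34. In wild-type vehicle arches the lowest, median and highest values of Oas1a were 0.466, 1.27 and 4.55 after 3 weeks, and in knockout arches 2.32, 3.6 and 9.89. After 8 weeks the 5 wild-type values were 0.669, 1.12, 0.884, 2.27 and 0.715, while the knockout ran 4.4, 6.88 and 13.6. After 16 weeks the groups had 0.641, 1.37 and 2.27 in wild type and 4.58, 7.99 and 14.5 in knockout. They overlapped in week 3, through wild-type replicate 4, and were apart in weeks 8 and 16. The changes were 1.26 ± 0.21, 1.94 ± 0.23 and 1.93 ± 0.19, with adjusted p from 3.50e-06 in week 3 to 4.29e-15 in week 16. Oasl2, an OAS-like protein, went from a median of 4.29 to 11.6 in week 16, a change of 1.20 ± 0.19 (adjusted p = 7.69e-08). Its week 8 groups, 3.5, 4.14, 3.11, 4.3 and 3.98 in wild type and 4.79 to 17.1 in knockout, did not overlap. Oas2, Oas3 and Oasl1 had changes of 0.40 to 1.09, although the median of Oas3 in wild-type vehicle libraries was 0.142 and the offset of 1 shrinks the change of such a low gene. Oas1a has the near copy Oas1g beside it, and reads may be split between them.

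The IFIT proteins, which bind viral RNA, did not move as one. Ifit3 had values of 5.78, 9.4 and 18.3 in wild-type and 10.4, 18.3 and 34.2 in knockout vehicle arches of week 16, overlapping groups that differed by 0.91 ± 0.22 (adjusted p = 0.000647). It was also higher in week 3, by 0.80 ± 0.25, and was not called in week 8 (0.47 ± 0.27, adjusted p = 0.257). Ifit1 followed the same calls, with 0.92 and 1.0997 in weeks 3 and 16. Ifit2 was the exception. Its medians stayed between 5.45 and 7.25 in the vehicle groups, with changes of 0.29, -0.094 and -0.031 that were not called. Ifit3 has the near copy Ifit3b, so its level may include reads of that gene.

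All 4 sensors were called higher in the knockout at each time. Zbp1, which senses Z-form nucleic acids and can start necroptosis, had values of 0.474, 1.55 and 2.94 in wild type and 2.89, 6.09 and 12.1 in knockout in week 16. The groups met at a single point, where the highest wild-type value passed the lowest knockout value. In week 8 they were apart, with 0.922, 1.51, 1.26, 1.26 and 1.96 in wild type against 2.46 to 12.3. The change was 1.18 ± 0.28 in week 3, 1.40 ± 0.31 in week 8 and 1.50 ± 0.25 in week 16 (adjusted p at most 0.00106). Dhx58 (LGP2), a regulator of RNA sensing, rose from medians of 1.06, 1.21 and 1.5 to 2.81, 2.67 and 3.65, or by 0.90 ± 0.14 in week 16. The helicases Ifih1 (MDA5) and Ddx58 (RIG-I) had smaller changes, of 0.51 to 0.61 and of 0.27 to 0.38.

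Of the transcription factors and feedback regulators, all 6 were called higher in weeks 3 and 16 and 2 in week 8. Irf9, the DNA-binding part of the type I complex, had values of 9.00, 10.7 and 13.5 in wild type and 14.5, 17.5 and 20.6 in knockout in week 16, with no overlap. It differed by 0.49 ± 0.092, 0.44 ± 0.10 and 0.63 ± 0.082, and was the only factor besides Irf7 called in week 8. Irf7, which amplifies interferon production, had medians of 4.47 and 12.8 in week 16 and a change of 1.46 ± 0.22. Stat2, the partner of Irf9, differed by 0.51 ± 0.11 in week 3 and 0.67 ± 0.10 in week 16, but its week 8 change of 0.30 ± 0.12 was not called (adjusted p = 0.0663). Isg15, a ubiquitin-like modifier, and Usp18, which removes it and also damps the receptor, had changes of 1.21 and 0.88 in week 16.

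Irf1, a factor induced by interferon-gamma through its GAS, had its highest change in week 3. Wild-type vehicle libraries then had 9.33, 10.7 and 18.3 and knockout ones 14.9, 19.98 and 59.3. The wild-type maximum was replicate 4 and the knockout maximum replicate 5, and the other libraries of the groups did not overlap. The change was 0.92 ± 0.13 (adjusted p = 6.93e-08) and was 0.82 ± 0.11 without both libraries. In weeks 8 and 16 it was 0.20 ± 0.15 (adjusted p = 0.368) and 0.35 ± 0.12 (adjusted p = 0.0149).

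**Figure D2:**
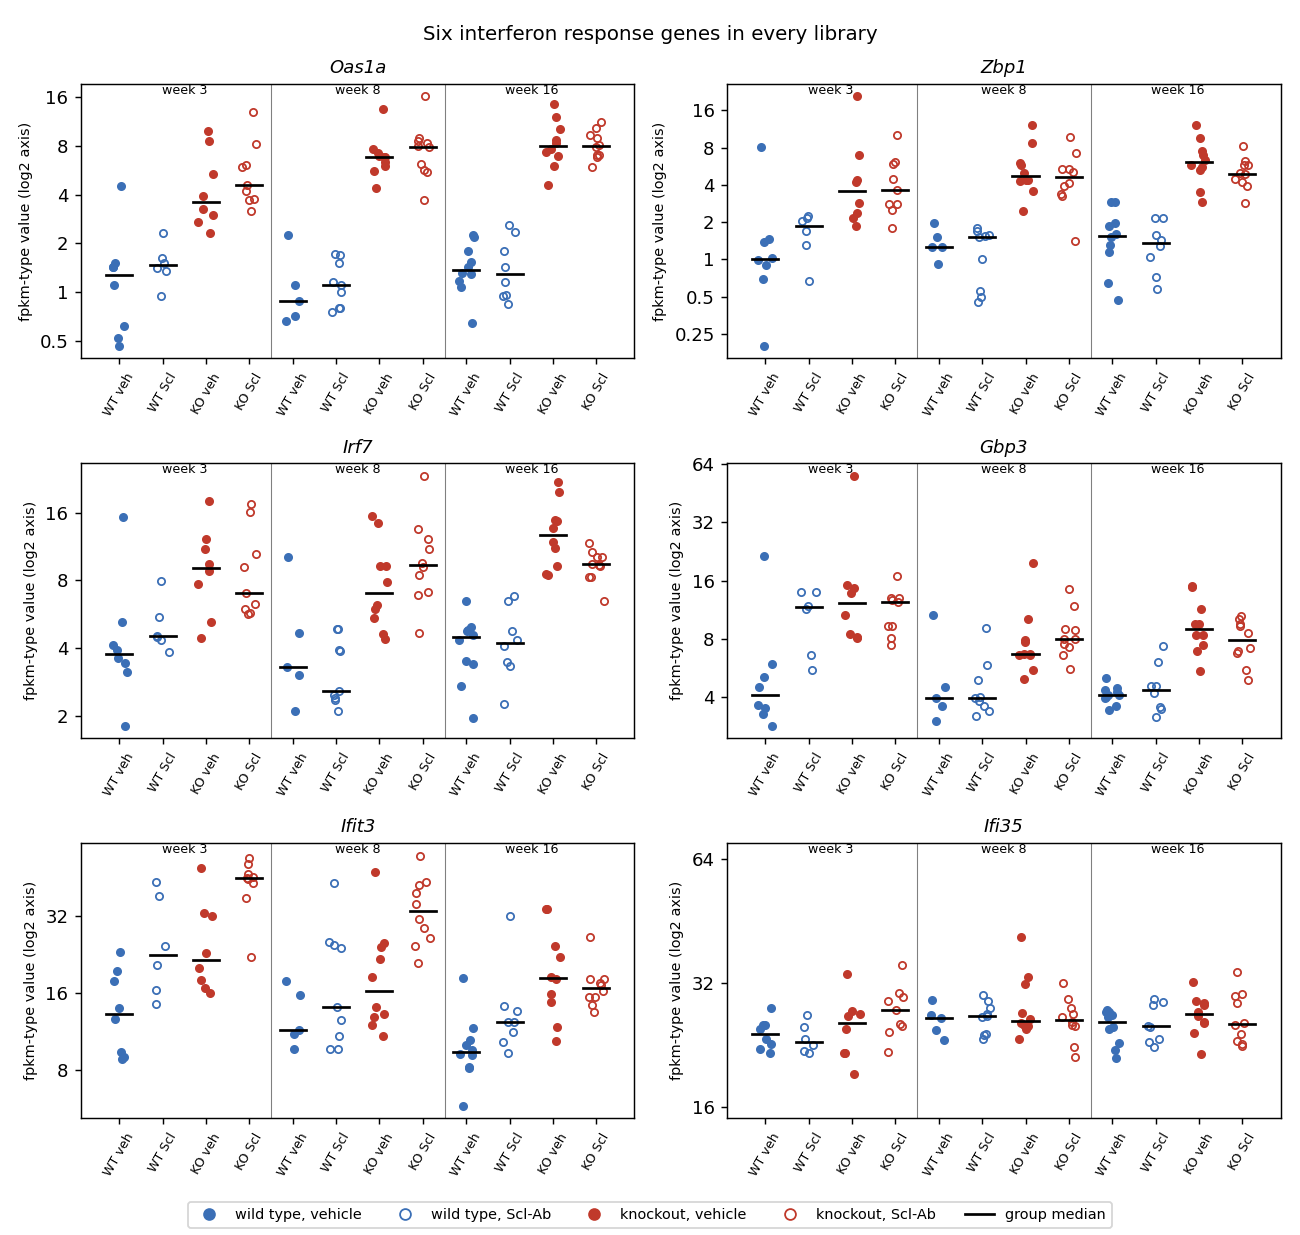
Deposited fpkm-type value (log2 axis) of Oas1a, Zbp1, Irf7, Gbp3, Ifit3 and Ifi35 in every library, by genotype, treatment and week, with a bar at each group median. Knockout medians (red) lie above wild-type medians (blue) for Oas1a, Zbp1 and Irf7 in each week and treatment, with single libraries overlapping in several of these pairs, Gbp3 shows single high libraries in the vehicle groups of week 3, and Ifi35 stays near 25.

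Among the other antiviral effectors Bst2 (tetherin), which holds budding virus on the cell surface, was the most strongly called by adjusted p along with Parp14. Bst2 had values of 29.4, 38.01 and 51.03 in wild-type and 57.1, 77.9 and 102.8 in knockout vehicle arches of week 16, with no overlap. Its changes were 0.68 ± 0.17, 0.71 ± 0.19 and 0.96 ± 0.15. Parp14, an ADP-ribosyltransferase, differed by 0.68 ± 0.11, 0.48 ± 0.12 and 0.53 ± 0.10, and its week 8 groups were apart (3.53, 3.23, 3.32, 3.88 and 4.14 against 4.17 to 7.05). Rtp4, a chaperone-like interferon target, and Mx1 were also called at each of the 3 times, with changes up to 1.04 and 1.01. Xaf1, linked to cell death, was called at each time too (0.47 to 0.68). Rsad2 (viperin), an enzyme that makes a chain-terminating nucleotide, was called in week 3 (0.80 ± 0.28, adjusted p = 0.028) and not in week 16 (0.57 ± 0.25, adjusted p = 0.0671). Its neighbour Cmpk2, which supplies a precursor, had 0.38, 0.091 and 0.12, called in week 3 alone. Ifi27l2a had the highest level of the 39 on this scale, with a median of 67.2 over the 23 wild-type and 137 over the 28 knockout vehicle libraries. Ifi35 was the flat member. Its vehicle medians were 24.03 and 25.6 in week 3 and 25.7 and 26.9 in week 16, with changes of 0.047 to 0.10.

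The interferon-gamma GTPases, which attack the membranes around intracellular microbes, were higher in weeks 3 (6 of 7) and 16 (7 of 7) and in week 8 none passed, with changes there from 0.036 for Igtp to 0.61 for Gbp5. Gbp3 had 2.84, 4.08 and 21.5 in wild-type and 8.06, 12.2 and 55.5 in knockout vehicle arches of week 3. Wild-type replicate 4 was the sole overlap, since the next wild-type value was 5.95. The change was 1.26 ± 0.24 (adjusted p = 5.09e-05), and 1.25 ± 0.21 without both libraries. In week 16 the groups were 3.42 to 4.99 and 5.43 to 14.95, apart from each other, with a change of 1.01 ± 0.22. Gbp5, which promotes inflammasome assembly, ran from a median of 1.66 to 4.45 in week 3 (1.21 ± 0.23) and from 2.03 to 4.22 in week 16 (0.79 ± 0.21). Knockout replicate 5 of week 3 reached 48.1, where the other 7 knockout libraries were at most 5.78. Gbp7 had changes of 0.73 ± 0.17 and 0.39 ± 0.15, and Irgm1, which regulates the other GTPases, of 0.62 ± 0.16 and 0.52 ± 0.14. The T and NK cell markers, whose cells make interferon-gamma, summed to 1.6 to 23.03 in wild-type and 4.63 to 62.4 in knockout vehicle arches of week 3. Of the 10 such markers tested, Cd2, Cd4 and Nkg7 were higher there, and their part in the result was not tested.

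The 3 genes of class I antigen processing were all higher in weeks 3 and 16. Psmb8, a catalytic subunit of the immunoproteasome, had 4.96, 8.83 and 10.4 in wild-type and 10.4, 19.9 and 25.3 in knockout vehicle arches of week 16, which touched without overlapping. The change was 1.08 ± 0.20 (adjusted p = 7.77e-06), and 0.83 ± 0.25 in week 8. Tap1, a subunit of the peptide transporter, differed by 0.79 ± 0.19 and 0.85 ± 0.17, and in week 8 by 0.35 ± 0.21 (adjusted p = 0.278). Psmb9, another catalytic subunit, had 0.91, 0.49 and 0.79, the middle value uncalled.

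Under Scl-Ab the knockout was again higher for most members in weeks 8 and 16 and for fewer in week 3. Members called higher numbered 18 in week 3 (all genes 13.3%), 33 in week 8 (14.3%) and 27 in week 16 (17.6%). Ifit2 was lower in week 16, by -0.46 ± 0.12 (all genes called lower 26.3%), from values of 5.54, 6.41 and 7.84 in wild type to 3.57, 4.45 and 6.02 in knockout. Median changes were 0.35, 0.71 and 0.47. In week 8 most knockout Scl-Ab libraries were deeper than the wild-type ones (values under processing). The part of depth was not tested. Oas1a separated the genotypes at all 3 times, with 0.948 to 2.33 against 3.2 to 12.95 in week 3 and 0.843 to 2.6 against 5.9 to 11.3 in week 16. The members whose groups did not overlap numbered 7 in week 3 (all genes 3.11%), 8 in week 8 (5.34%) and 7 in week 16 (7.34%). Of the 7 interferon-gamma GTPases 0 were called in week 3 by limma, 4 in week 8 and 2 in week 16, and at an unadjusted p under 0.05 the week 3 count was 0. Their week 3 changes lay between -0.082 for Igtp and 0.24 for Irgm1. The week 3 count of 18 fell to 12 without knockout Scl-Ab replicate 8, to 11 with clock components as covariates and to 9 with week 3 fitted alone, and the week 16 count to 16 with clock components. Shares of all genes called in these refits are not given here.

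Scl-Ab against vehicle moved few members, nearly all of them in wild-type arches of week 3. There 7 were higher and 0 lower (all genes called higher 13.7%, lower 13.2%), a share close to that of all genes. The 7 were Irf1, Gbp3, Gbp5, Gbp7, Rsad2, Ifit3 and Parp14. Irf1 had the lowest adjusted p. Its 6 Scl-Ab values were 17.6 to 21.4 with a median of 19.2, and the vehicle values 9.33, 10.7 and 18.3. Only vehicle replicate 4, at 18.3, reached the Scl-Ab range. The change was 0.74 ± 0.14 (adjusted p = 0.00018). Gbp3 had 5.53, 11.6 and 13.97 with Scl-Ab, a change of 0.86 ± 0.26 (adjusted p = 0.0105), and Gbp5 3.87, 4.86 and 8.58, a change of 1.01 ± 0.25 (adjusted p = 0.0022). Vehicle replicates 4 and 5 lay within or above the Scl-Ab range of Gbp3, and replicate 4 alone within that of Gbp5. Rsad2 differed by 0.93 ± 0.30 and Gbp7 by 0.55 ± 0.19. The count was 18 without both libraries that stand apart, the median change then being 0.40 in place of 0.23, it was 17 without vehicle replicate 4 alone, and it was 4 without Scl-Ab replicate 2. With the carry-over scores as covariates 3 members passed, and with clock components 0. The shares of all genes called in these refits are not given here, so these counts cannot be read against them.

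In the same comparison 7 of 15 clock genes were called, where 26.9% of all genes were called in any direction. Cry1, Hlf and Per3 were higher and Arntl, Clock, Npas2 and Per1 lower. Arntl (BMAL1, the core activator of the clock) was 2.93 to 6.94 with vehicle and 0.612 to 2.64 with Scl-Ab in wild-type arches of week 3, with no overlap. In wild type after 8 weeks 0 of 39 members were called (limma, unadjusted p under 0.05 for 0), where 0% of all genes were, and after 16 weeks 0 (unadjusted 0), where 0.00683% were. In knockout arches Ifit3 was higher after 3 weeks, at 22.1, 44.9 and 54.01 with Scl-Ab and 16.04, 21.5 and 49.4 with vehicle, a change of 0.78 ± 0.24 (adjusted p = 0.0303; all genes called higher 5.51%). It was higher after 8 weeks too, by 0.85 ± 0.22 (adjusted p = 0.0283; all genes 0.704%), together with Ifit2, by 0.42 ± 0.11 (adjusted p = 0.033). Leaving out 1 library took the count of called members more than 1.5 times up or down in some fits. These were 7 of 17 in week 3 and 12 of 20 in week 8. Most knockout Scl-Ab libraries of week 8 were also deeper than the vehicle ones, and the part of depth was not tested. Arntl in those knockout groups was 0.887 to 5.25 and 0.548 to 1.45 in week 3 and 2.07 to 8.19 and 0.803 to 3.57 in week 8, vehicle before Scl-Ab. After 16 weeks 0 members were called (unadjusted 4; all genes 0.0137%). Ifit3 in wild-type Scl-Ab arches of week 8 fell into separate levels, 24.04 to 43.1 in replicates 1 to 4 and 9.65 to 14.02 in replicates 5 to 9. Arntl was 0.434 to 1.87 in the former and 4.8 to 10.8 in the latter. The part of the clock genes in these Ifit3 values was not tested beyond the covariate fit, in which Ifit3 in the knockout of week 8 was not called.

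**Figure D3:**
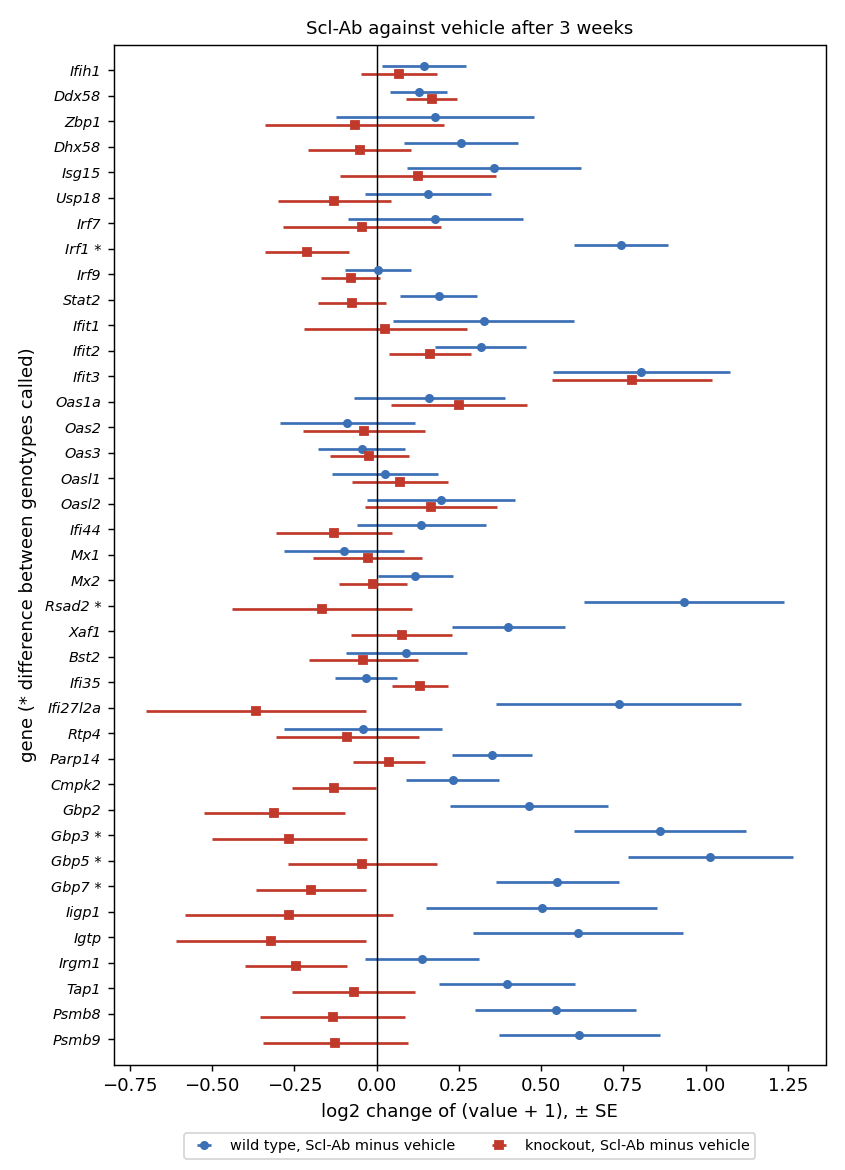
Log2 change of (value + 1), Scl-Ab minus vehicle after 3 weeks, for 39 genes in wild type (blue circles) and knockout (red squares), with bars of 1 SE. Asterisks mark the 5 genes whose change differed between genotypes. Gbp3, Gbp5, Gbp7, Rsad2 and Irf1 lie right of 0 in wild type and left of or near it in knockout.

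The response to Scl-Ab after 3 weeks differed between genotypes for 5 members, all with a lower response in the knockout (all genes called lower 11.3%), a share close to that of all genes. The differences, knockout response minus wild-type response, were -1.13 ± 0.35 for Gbp3 (adjusted p = 0.0183), -1.101 ± 0.41 for Rsad2 (0.0479), -1.06 ± 0.34 for Gbp5 (0.0209), -0.95 ± 0.19 for Irf1 (0.00236) and -0.75 ± 0.25 for Gbp7 (0.0273). In knockout arches the same genes had Scl-Ab changes from -0.27 for Gbp3 to -0.044 for Gbp5. Irf1 medians were 10.7 in wild-type vehicle, 19.2 in wild-type Scl-Ab, 19.98 in knockout vehicle and 19.01 in knockout Scl-Ab libraries. These contrasts share the vehicle groups with the genotype comparison of week 3. The count was 9 without both libraries that stand apart. Without 1 library it was 14 (wild-type vehicle replicate 4), 2 (wild-type Scl-Ab replicate 4) or 3 (wild-type vehicle replicate 2, knockout vehicle replicate 5 or wild-type Scl-Ab replicate 2). It was 0 with carry-over scores as covariates or with week 3 fitted alone. For these refits too the share of all genes called is not given here. In weeks 8 and 16 the interaction called 0 members by limma (unadjusted p under 0.05 for 2 and 5) and 0% of all genes.

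Between times, the genotype effect in vehicle mice was called different for 1 member. The median differences of the members were -0.20 (week 8 against 3), 0.081 (week 16 against 3) and 0.25 (week 16 against 8). Their median SEs were 0.27, 0.24 and 0.26, so missing calls do not show equal effects. Week and age cannot be told apart. The labels do not assign sequencing batches to libraries, so batches may follow week, genotype or treatment. Irf1 had a smaller effect in week 16 than in week 3, by -0.57 ± 0.18 (adjusted p = 0.0441), where 0.922% of all genes had a smaller one. The call was lost in 21 of 36 fits that left out 1 library, and with a replicate block, a pseudocount of 0.1, median-of-ratios scaling, no filter, carry-over scores or clock components. Week 8 against week 3 and week 16 against week 8 called 0 members in limma (unadjusted p under 0.05 for 3 and 5; all genes 0.273% and 0.0137%). Oas1a, whose effect was 1.26 in week 3 and 1.93 in week 16, differed between them by 0.67 ± 0.29 (adjusted p = 0.182). The week 8 comparison, with its 17 called members, had 5 wild-type libraries, the fewest of any group.

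Other genes of the pathway were read from lists. These were chosen with earlier results of these data known, so their counts are no independent check on the members. Over all genes 11.6%, 10.2% and 15.5% were called higher in the knockout with vehicle in weeks 3, 8 and 16. The interferons themselves were at or near 0. Of 9 ligand genes, 0 passed the filter. Ifnb1 (interferon-beta) was above 0 in 4 libraries of the series and Ifng in 18, while Ifna1, Ifna4, Ifna5, Ifnl2 and Ifnl3 were listed at 0 in all. Of 11 tested receptor and signalling genes, 5 were higher in the knockout with vehicle in week 3 and 8 in week 16, with Jak2, a receptor-bound kinase, lower there (-0.31 ± 0.073). They were led in week 16 by Il10rb (0.94 ± 0.10), a chain of the interferon-lambda and interleukin-10 receptors, Socs3 (2.08 ± 0.23), a feedback inhibitor of JAK signalling, and Ifnar2 (0.44 ± 0.095), a chain of the type I receptor. Of 15 upstream sensing genes, 9 were higher in week 3, 8 in week 8 and 11 in week 16. Irf5 (1.59 ± 0.15), Irf8 (1.95 ± 0.19) and Tmem173 (1.35 ± 0.14), the adaptor STING, had the lowest adjusted p in week 16. Irf5 and Irf8 are also abundant in macrophages.

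Of 28 further interferon-induced genes tested, 20, 6 and 18 were higher in weeks 3, 8 and 16 with vehicle and 0 lower. Lgals3bp (1.61 ± 0.16), a secreted glycoprotein, Oas1g (1.14 ± 0.13), the copy beside Oas1a, and Trim30a (0.89 ± 0.15), a TRIM protein, led week 16. Their median changes were 0.66, 0.22 and 0.47. Of 11 other class I genes, 10, 4 and 8 were higher, with H2-D1 (0.93 ± 0.13), a classical heavy chain, Nlrc5 (1.04 ± 0.19), the transactivator of class I genes, and B2m (0.66 ± 0.13), the light chain, having the lowest adjusted p in week 16. With Scl-Ab in wild-type arches of week 3, 6 of the 28 further interferon-induced genes were higher (all genes 13.7%), among them Ifit3b (1.06 ± 0.26), Gbp9 (0.90 ± 0.24) and Isg20 (0.62 ± 0.19).

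Macrophage markers moved with genotype in the same libraries. Of the 12, 11, 11 and 12 were higher in the knockout with vehicle at weeks 3, 8 and 16, and their median changes were 1.26, 1.63 and 1.97. With a macrophage score (the mean log2 value of the 12) as covariate, knockout against wild type called 1 member in week 3, Irf1 (0.60 ± 0.17), and 0 in weeks 8 and 16. The shares of all genes called with the score are not given here, so counts called with it cannot be read against them. The median change of the members went from 0.77 to 0.17 in week 3, from 0.48 to -0.18 in week 8, and from 0.79 to -0.053 in week 16, and 32, 4 and 17 of the 39 members had a change above 0. The median SE of a member rose from 0.162 to 0.254 in week 16. The marker sums, a measure other than the score, did not overlap between genotypes, and the overlap of the score itself is not given here. From these libraries genotype and macrophage level cannot be told apart. Oas1a, the member with the largest change in that week, went from 1.93 to -0.078 in week 16. The wild-type Scl-Ab comparison of week 3, within one genotype, called 10 members with the score and 7 without it, where the macrophage sums were 227 to 287 with Scl-Ab and 137 to 474 with vehicle. Plasmacytoid dendritic cells, potent makers of type I interferon, have Siglech as a defining marker. It was at most 1.66 in any library, and of 7 tested markers on their list, which includes Bst2 and the macrophage-expressed Irf8, 5 were higher in the knockout with vehicle in week 3 and 5 in week 16.

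**Figure D4:**
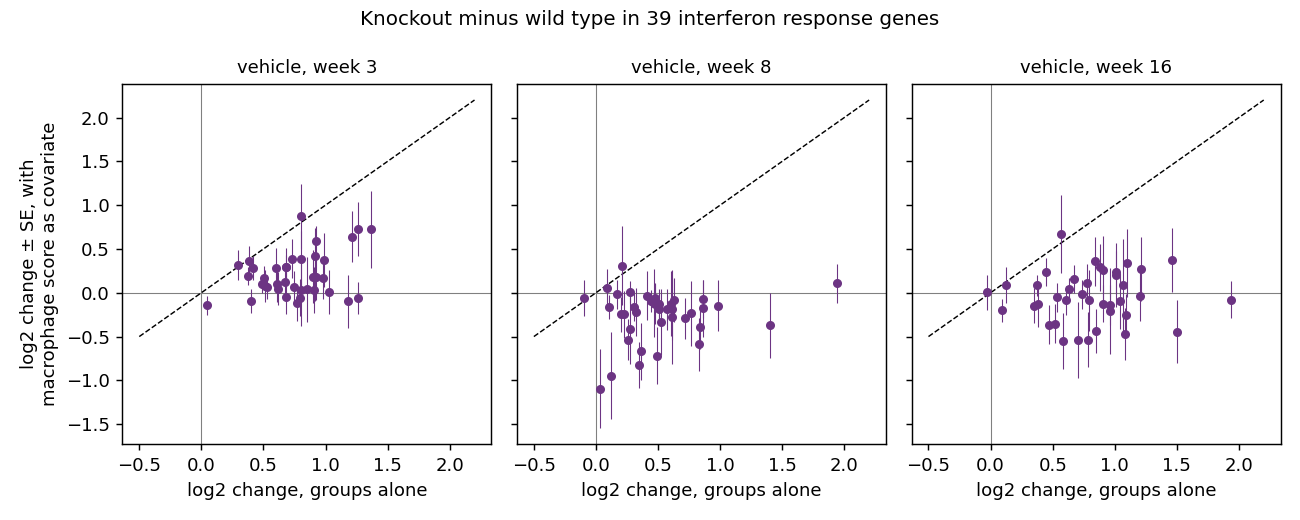
Change of the 39 genes between knockout and wild type with vehicle at each week, in the fit of groups alone (x axis) and with the macrophage score as covariate (y axis, bars of 1 SE), both as log2 of (value + 1). The dashed line marks equal values, and most points lie below it, around a median of 0.17 in week 3, -0.18 in week 8 and -0.053 in week 16.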

How the data were processed

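The authors deposited FPKM-type values, 1 per gene symbol and library, in a column called FPKQ that the sources do not define. Libraries were made with a TruSeq stranded mRNA kit, per the labels' protocols. Per the submitters' processing notes, the build was GRCm38 and DESeq2 1.10.1 was used. Aligner, quantifier and annotation were not given in the sources. Read depth is unknown. Depth relative to the median library, read from the steps of values under 1, was 0.821 to 1.59, and 12405 to 13338 genes reached 1. In week 8 this depth was 0.94 to 1.586 in knockout Scl-Ab libraries, at 1.165 or more in all but replicates 7 and 8. It was 0.895 to 1.072 in knockout vehicle and 0.908 to 1.079 in wild-type Scl-Ab libraries of that week.

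The 14637 genes that reached 1 in 5 or more libraries were fitted as log2(value + 1) with 12 group means using limma 3.58.1 under R 4.3.3 (moderated by a trend, robustly), after a check on simulated data. P-values were two-sided and adjusted over all genes by Benjamini-Hochberg. The offset shrinks the changes of low genes. Given in full were the 2 members per role with the lowest adjusted p over the vehicle knockout comparisons and up to 4 called members per Scl-Ab comparison or interaction (17 genes in all), and the 3 with the lowest adjusted p per pathway list. Values of Irf7, Ifit1, Ifi35, Arntl and Siglech were added after they had been seen. The members and all gene lists were chosen with earlier results of these data known. A single signalling gene is not reported here. Alternatives were another pseudocount, filters, scaling, a block for replicate number, covariates and leaving out libraries. Leaving out both week 3 vehicle libraries that stand apart, and the slopes on macrophage level, were added after the data were seen. The Scl-Ab libraries of week 16 were not left out one by one. Carry-over scores are mean log2 values of white and brown adipocyte, skeletal muscle, cardiomyocyte and thymocyte markers, and clock components are the first 2 principal components of 15 clock genes. Each library is 1 animal, by the animal numbers of the labels.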

Additional observations from a re-analysis of the deposited data

Results flagged for a closer look

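In 204 checks of a single high or low library (17 genes in 12 groups, by the gap to the nearest value), 49 were past the limit. For normally distributed values about 1 in 20 would pass it. The checks used values without the log2 step, and many of the genes were high in the same library. The count of 49 is therefore not read against chance. The wild-type vehicle library of week 3, replicate 4, stood apart from its group for Oas1a at 4.55, Oasl2 at 9.02, Parp14 at 6.63, Bst2 at 84.97, Dhx58 at 3.59, Zbp1 at 8.12, Irf9 at 17.1, Stat2 at 10.8, Gbp3 at 21.5, Gbp5 at 6.05, Psmb8 at 31.1, Tap1 at 11.7, Irf1 at 18.3, Rsad2 at 9.82 and Gbp7 at 9.17. The knockout vehicle library of week 3, replicate 5, was set off for Oasl2 at 20.8, Parp14 at 12.9, Bst2 at 146, Zbp1 at 20.9, Stat2 at 18.04, Gbp3 at 55.5, Gbp5 at 48.1, Psmb8 at 53.6, Tap1 at 33.5, Irf1 at 59.3 and Gbp7 at 21.4. The knockout vehicle library of week 8, replicate 8, lay outside its group for Oas1a at 13.6, Gbp3 at 19.7, Gbp5 at 13.2, Tap1 at 11.99 and Gbp7 at 9.35. The knockout Scl-Ab library of week 8, replicate 4, was distant from the rest of its group for Oas1a at 16.3, Oasl2 at 19.2 and Tap1 at 12.4. The knockout Scl-Ab library of week 3, replicate 8, differed from its group by the same measure for Oasl2 at 18.4, Dhx58 at 5.18 and Stat2 at 10.99. Further single libraries were replicate 4 of wild-type vehicle week 8 for Oas1a at 2.27, replicate 2 of wild-type vehicle week 16 for Dhx58 at 0.48, replicate 5 of wild-type vehicle week 8 for Gbp3 at 10.6 and Gbp5 at 5.86, replicate 3 of wild-type Scl-Ab week 8 for Gbp3 at 9.14 and Ifit3 at 43.1, replicate 8 of wild-type Scl-Ab week 16 for Irf1 at 16.9, replicate 7 of knockout Scl-Ab week 16 for Rsad2 at 8.18, replicate 4 of knockout vehicle week 8 for Ifit3 at 47.6, replicate 7 of wild-type vehicle week 16 for Ifit3 at 18.3, replicate 5 of wild-type Scl-Ab week 16 for Ifit3 at 32.1 and replicate 2 of knockout Scl-Ab week 16 for Ifit3 at 26.6.

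The marker levels of the 2 libraries with most of these values are given with the results, and their part in these values was not tested. Differences between genotypes in the response to Scl-Ab after 3 weeks were called by limma for Irf1 (-0.95), Rsad2 (-1.101), Gbp5 (-1.06), Gbp7 (-0.75) and Gbp3 (-1.13), each as knockout minus wild type on the log2 scale. The knockout effect on Irf1 with vehicle differed between weeks 16 and 3 by -0.57.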

How the results depend on the processing

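The limits are these. Values without counts give no counting error, 5 wild-type vehicle libraries carry the week 8 comparison, and batches are unassigned. Counts of called members stayed within 1.5 times the reported count in 134 of 169 comparisons with an alternative. The others follow, with main counts as in the results and without the share of all genes called in each fit. With clock components as covariates, called members were 17 for knockout vehicle week 3, 11 for knockout Scl-Ab week 3, 16 for knockout Scl-Ab week 16, 0 for Scl-Ab in wild type week 3, 0 for Scl-Ab in knockout week 8 and 0 for knockout effect week 16 against week 3. With the macrophage score as covariate, called members were 1 for knockout vehicle week 3, 0 for knockout vehicle week 8, 0 for knockout vehicle week 16, 0 for knockout Scl-Ab week 3, 0 for knockout Scl-Ab week 8, 0 for knockout Scl-Ab week 16, 0 for Scl-Ab in knockout week 3, 9 for interaction week 3 and 1 for knockout effect week 8 against week 3. With each day fitted alone, called members were 9 for knockout Scl-Ab week 3, 2 for Scl-Ab in wild type week 3, 0 for Scl-Ab in knockout week 3, 1 for Scl-Ab in knockout week 8 and 0 for interaction week 3. With carry-over scores, called members were 3 for Scl-Ab in wild type week 3, 0 for Scl-Ab in knockout week 3, 0 for interaction week 3 and 0 for knockout effect week 16 against week 3. Without both week 3 vehicle libraries that stand apart, called members were 18 for Scl-Ab in wild type week 3, 2 for Scl-Ab in knockout week 3, 9 for interaction week 3 and 1 for knockout effect week 8 against week 3. With no filter on low values, called members were 0 for Scl-Ab in knockout week 3, 0 for Scl-Ab in knockout week 8, 3 for interaction week 3 and 0 for knockout effect week 16 against week 3. With a pseudocount of 0.1, called members were 0 for knockout effect week 16 against week 3. Rescaled by median of ratios, called members were 0 for knockout effect week 16 against week 3. With a replicate block, called members were 0 for knockout effect week 16 against week 3. Whether the replicate numbers pair the libraries was not tested. After group means were taken off, same-numbered libraries had mean correlations of -0.045, 0.0835 and 0.0213 in weeks 3, 8 and 16. Libraries with different numbers had 0.0103, -0.00883 and -0.00104. With the block, knockout vehicle called 36, 16 and 35 in weeks 3, 8 and 16, and Scl-Ab in wild type week 3 called 5. Leaving out 1 library at a time gave 33 to 37 for knockout vehicle week 3, 12 to 18 for knockout vehicle week 8, 33 to 36 for knockout vehicle week 16, 12 to 19 for knockout Scl-Ab week 3, 32 to 35 for knockout Scl-Ab week 8, 4 to 17 for Scl-Ab in wild type week 3, 0 to 0 for Scl-Ab in wild type week 8, 0 to 0 for Scl-Ab in wild type week 16, 0 to 1 for Scl-Ab in knockout week 3, 0 to 3 for Scl-Ab in knockout week 8, 0 to 0 for Scl-Ab in knockout week 16, 2 to 14 for interaction week 3, 0 to 0 for interaction week 8, 0 to 0 for interaction week 16, 0 to 1 for knockout effect week 8 against week 3, 0 to 1 for knockout effect week 16 against week 3 and 0 to 0 for knockout effect week 16 against week 8. Among the 17 genes given in full, 685 values kept direction and call, 52 turned direction, all with the macrophage score as covariate, and the others kept direction and lost the call. The cause was not tested. Those log2 changes were knockout vehicle week 3, Oas1a -0.060, Bst2 -0.047, Zbp1 -0.10 and Tap1 -0.055, knockout vehicle week 8, Oasl2 -0.15, Parp14 -0.056, Bst2 -0.29, Dhx58 -0.072, Zbp1 -0.37, Irf9 -0.093 and Psmb8 -0.59, knockout vehicle week 16, Oas1a -0.078, Oasl2 -0.038, Parp14 -0.053, Bst2 -0.14, Dhx58 -0.12, Zbp1 -0.44, Gbp5 -0.084, Psmb8 -0.47, Tap1 -0.44, Irf1 -0.15 and Gbp7 -0.13, knockout Scl-Ab week 3, Oas1a -0.24, Oasl2 -0.028, Parp14 -0.10, Bst2 -0.33, Dhx58 -0.37, Zbp1 -0.60 and Irf9 -0.060, knockout Scl-Ab week 8, Oas1a -0.0089, Oasl2 -0.12, Bst2 -0.30, Dhx58 -0.19, Zbp1 -0.55, Irf9 -0.039, Gbp5 -0.18, Psmb8 -0.52, Tap1 -0.36 and Irf1 -0.10, and in knockout Scl-Ab week 16, Oas1a -0.13, Oasl2 -0.34, Parp14 -0.15, Bst2 -0.27, Dhx58 -0.32, Zbp1 -0.59, Irf9 -0.070, Stat2 -0.072, Gbp3 -0.14, Gbp5 -0.36, Psmb8 -0.46, Tap1 -0.65 and Irf1 -0.12.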

Other observations

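Within the 12 groups, most members were also higher in libraries with more macrophage marker RNA. With a mean per group and the macrophage score in 1 limma fit over all genes, 30 of 39 members increased with the score and 0 decreased, where 16.7% of all genes increased. The slope per log2 unit of the score was 0.81 ± 0.071 (SE) for Oas1a, 0.79 ± 0.12 for Zbp1, 0.63 ± 0.10 for the immunoproteasome subunit Psmb8 and 0.45 ± 0.075 for Bst2. It was -0.042 ± 0.15 for Rsad2, -0.015 ± 0.067 for Ifit2 and 0.014 ± 0.068 for Cmpk2 (not called). Igtp (0.50 ± 0.15), Iigp1 (0.47 ± 0.16) and Ifi35 (0.12 ± 0.043), which like these 3 were called in at most 2 of the knockout comparisons, did increase with the score. Gbp7, called in 2 of them, had a slope of 0.21 ± 0.087 that was not called (limma, adjusted p = 0.0536). Without both week 3 vehicle libraries that stand apart the count was 22 members (all genes 17.6%). It was 30 with a pseudocount of 0.1 (16.5%), 27 with no filter (7.92%), and 25 of 32 with a filter of 5 (17%). This comparison was chosen after the data were seen, and libraries of a group share dissection and depth differences that were not tested.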
